A study of Papilio machaon with 10 samples.

Results

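A set of 150 genes of the swallowtail butterfly Papilio machaon was high in the second-instar larva (L2) and in the male pupa and low in the other 8 libraries of a developmental series. The genes were selected on their measured levels: each reached at least 10 RPKM (a read count per length of gene and per depth of library) in some library, and when its 10 values of log2(RPKM + 1) were put in order the largest gap was at least 1 (a 2-fold step on this scale) with exactly L2 and the male pupa above it. Of the 15285 genes in the table, 11856 reached 10 RPKM, and 173 of these (1.46%) met the rule. The 150 with the largest gaps were kept and are called the shared genes here. Because L2 and the male pupa defined the set, the contrast of these libraries with the other 8 is given as a description, without a test.

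RNA was taken from whole bodies, with 1 library for each stage. The L2 library pooled 5 larvae and the male pupa library came from 1 animal, against 10 eggs, 10 first-instar larvae (L1), 1 larva each of L3, L4 and L5, 1 female pupa, 1 male adult and 1 female adult. The labels give a sex for pupae and adults only, and no genotype, strain, treatment or age within a stage. There were therefore no replicates, and no difference below can be set against the spread between animals. Intervals cover counting error only.

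Caterpillars grow between moults. Before each moult, pulses of ecdysteroid hormone make the epidermis separate from the old cuticle and lay down a new one beneath it, so that many genes are switched on for a short time within an instar. In the pupa, larval tissues break down while the adult cuticle, wings, muscles and sense organs form, and the pupal stage passes through hormone pulses of its own. Whole-body RNA averages over every tissue, and fewer cells of a type and less RNA per cell cannot be told apart in it.

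The genes are listed by locus tags, which the files do not pair with names. None of the tags was found in the RefSeq gene table used here, which belongs to another assembly of the species (0 matches against 14718 genes), so the shared genes are described by their levels, tag positions and lengths, and no function is given for any of them.

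L2 and the male pupa also had the most reads on genes, but only with the reads on the shared genes counted in. Reads on genes, worked out from the steps between RPKM values, came to 35989828 in L2 and 32086369 in the male pupa, against 23274472 (L5) to 30929188 (L4) in the other 8. These counts hold 5703201 reads on the shared genes in L2 and 5174887 in the male pupa, against at most 66783 in the others. With the reads on the shared genes left out, L4 had more reads on genes than either L2 or the male pupa. The read totals by which the RPKM values were scaled were 26492878 in L2 and 26200263 in the male pupa, with the female pupa next at 25824498. An RPKM value resting on 3 reads of a 1-kb gene lay between 0.113 and 0.167 over the 10 libraries. Over the 13811 genes outside the set with a mean of at least 1 RPKM, L2 resembled the other instars more than it resembled the male pupa. Spearman's rho over these genes was 0.68 between L2 and the male pupa, against 0.75 to 0.80 between L2 and each of the other 4 instars. The other 4 instars reached 0.84 to 0.91 among themselves, so that L2 stood somewhat apart from them. The male pupa gave a rho of 0.80 with the female pupa and of 0.55 to 0.60 with the instars other than L2, and L2 gave 0.65 with the female pupa, close to its 0.68 with the male pupa. These values are across genes, which share library, depth and gene length and are not independent replicates. The part of depth, age within the stage or the individual animals in the shared pattern was not tested.

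L2 and the male pupa do not follow each other in development and differ in stage, but they formed one of the most frequent pairs. The same ordering of values was applied to all 45 pairs of libraries, and 935 genes had exactly 2 libraries above the gap. Male and female adult shared 228 genes, male and female pupa 202, L2 and male pupa 173, and male pupa and male adult 121. Each of the other 41 pairs had at most 29 genes, which was the number for egg and L1. With a gap of at least 2 required (4-fold), L2 and male pupa led with 140 genes, against 95 for male and female adult, 69 for male and female pupa, and 57 for male pupa and male adult. L2 with any library other than the male pupa gave 39 genes in all, the most being 16 with the egg, and L2 with another instar gave 7 in all. A further 179 genes had L2 alone above the gap, and 252 had the male pupa alone. When 3 libraries stood above the gap and both L2 and the male pupa were among them (106 genes), the other library was most often the female pupa, in 70 genes.

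**Figure D1:**
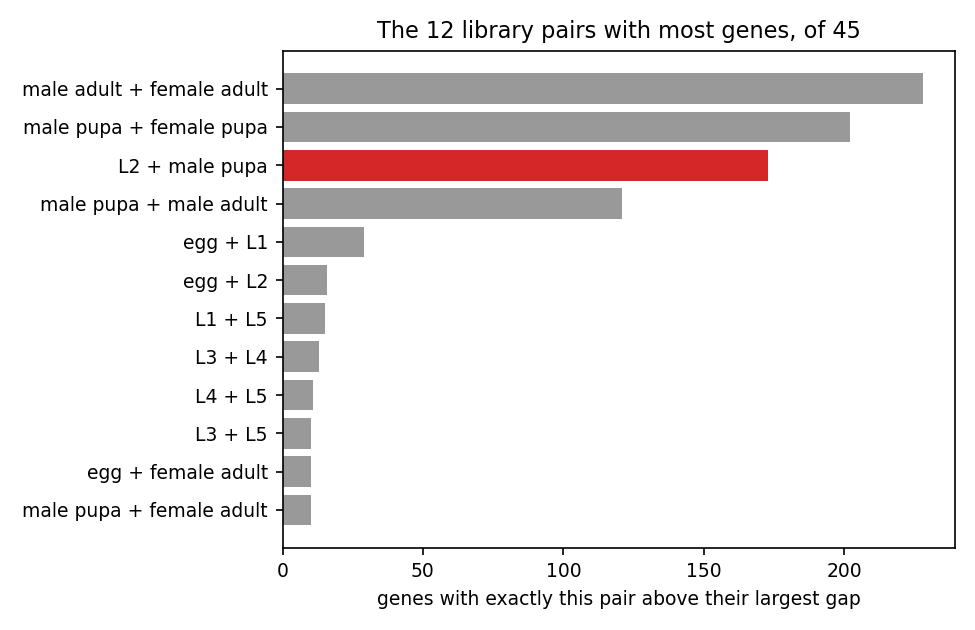
Genes with exactly 2 libraries above the largest gap, by pair of libraries (horizontal axis, number of genes), for the pairs with the most genes. L2 and male pupa, with 173 genes, stand behind male and female adult (228) and male and female pupa (202), followed by male pupa and male adult (121) and then egg and L1 (29).

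The shared genes made up a large part of the RNA in both libraries. They took 15.8% of the reads on genes in L2 (Wilson 95% interval 15.83 to 15.86%) and 16.1% in the male pupa (16.12 to 16.14%), against 0.0423% in L5 to 0.265% in the egg among the other 8 libraries. Of the 100 highest genes of a library, 18 were shared genes in L2 and 21 in the male pupa, against 0 in each of the other 8. The median shared gene stood at 205 RPKM in L2, within a range of 8.06 to 48374 RPKM, and at 221 RPKM in the male pupa, within 8.54 to 20116 RPKM. In the other 8 libraries the median of the same genes lay between 0.825 RPKM in the female adult and 2.74 RPKM in the egg. Over all 11856 genes the median was 15.6 RPKM in L2, 17.6 RPKM in the male pupa and 9.73 to 18.7 RPKM in the others. The shared genes were thus on the high side of the 2 libraries that defined them and on the low side of the rest.

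The levels in L2 and the male pupa rested on many reads. The median shared gene had 6138 reads in L2 and 6133 in the male pupa, against 13 to 40 reads in the other 8 libraries. The fewest reads behind a shared gene were 46 in L2 and 41 in the male pupa. A few genes held most of the reads: the 10 highest shared genes carried 63.6% of the reads on the set in L2 and 54.2% in the male pupa, and 6 of those 10 were the same genes in both.

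The gap between the lower of L2 and male pupa and the highest of the other 8 libraries ran from 1.63 to 10.14 on the log2(RPKM + 1) scale, with a median of 3.66. It was at least 2 in 140 genes, at least 4 in 68, at least 6 in 26 and at least 8 in 8. The lower of the L2 and male pupa levels was at least 100 RPKM in 89 genes and at least 1000 RPKM in 25. As a ratio of RPKM values, it was 14.5 times the highest of the other 8 in the median gene, and 4.55 to 201 times from the 10th to the 90th percentile of the set. In 93 genes all 8 other libraries were below 10 RPKM, and in 13 genes all 8 were below 1 RPKM. A value of 0 was listed for 104 of the 1200 values in the other 8 libraries (8.67%), spread over 47 genes.

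**Figure D2:**
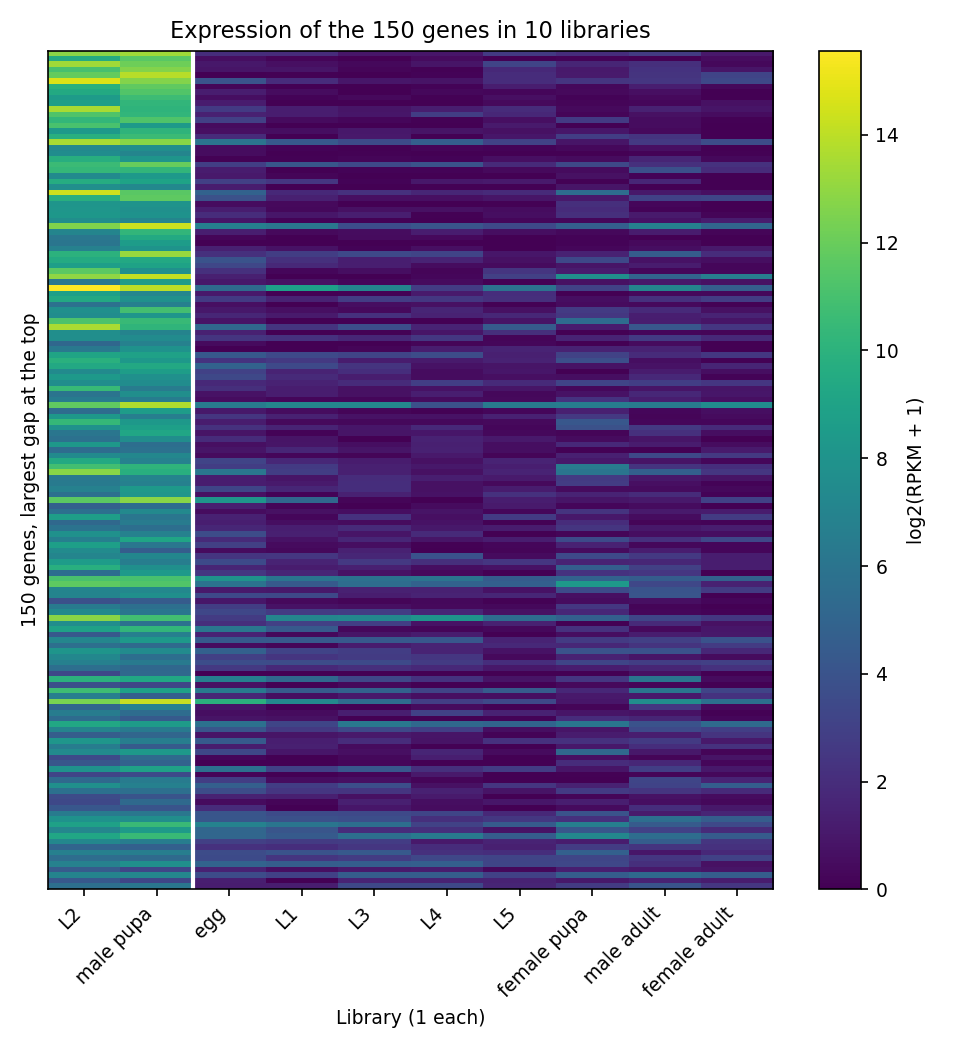
Levels of the 150 shared genes (rows, ordered by gap, the largest at the top) in each library (columns, L2 and male pupa first, then egg, L1, L3, L4, L5, female pupa, male adult and female adult), with colour giving log2(RPKM + 1). The 2 left columns are green to yellow in most rows (medians of 205 and 221 RPKM), and the other 8 are mostly dark blue (medians of 0.825 to 2.74 RPKM), with more of the lighter rows in the egg column than in the larval columns beside it.

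The largest gap belonged to RR48_02907. It stood at 7279 RPKM in L2 and 10221 RPKM in the male pupa, against 3.08 in the egg, 3.01 in L1, 0.934 in L3, 0.935 in L4, 5.14 in L5, 3.07 in the female pupa, 5.44 in the male adult and 1.12 RPKM in the female adult. These levels rested on 240673 and 334202 reads in L2 and the male pupa, against 25 to 134 reads in the others, and the gap was 10.14. RR48_05672 followed with the next largest gap. It stood at 757 RPKM in L2 and 3083 RPKM in the male pupa, against 0.480 in the egg, 0.156 in L1, 0.359 in L4, 0.415 in the female adult, 0.111 in the female pupa and a listed 0 in L3, L5 and the male adult. The 8 other libraries reached at most 5.44 RPKM for RR48_02907 and at most 0.480 RPKM for RR48_05672, where no more than 3 reads were counted in any of them.

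The highest levels in L2 belonged to RR48_05832 and RR48_03180. RR48_05832 stood at 48374 RPKM in L2 and 15683 RPKM in the male pupa, against 40.2 in the egg, 442 in L1, 133 in L3, 5.91 in L4, 58.0 in L5, 7.35 in the female pupa, 131 in the male adult and 23.0 RPKM in the female adult. It was therefore not silent elsewhere: L1, L3 and the male adult were above 100 RPKM, and L4 and the female pupa were the lowest. RR48_03180 stood at 27330 RPKM in L2 and 6498 RPKM in the male pupa, against 14.6 in the egg, 2.96 in L1, 0.929 in L3, 0.755 in L4, 2.88 in L5, 4.17 in the female pupa, 4.49 in the male adult and 9.33 RPKM in the female adult. Here every other library was at or below 14.6 RPKM, and L3 and L4 were the lowest.

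In the male pupa the highest levels were those of RR48_06193 and RR48_02456. RR48_06193 stood at 6393 RPKM in L2 and 20116 RPKM in the male pupa, against 106 in the egg, 71.0 in L1, 11.9 in L3, 16.3 in L4, 9.92 in L5, 24.4 in the female pupa, 113 in the male adult and 32.9 RPKM in the female adult. RR48_02456 stood at 5497 RPKM in L2 and 18730 RPKM in the male pupa, against 990 in the egg, 150 in L1, 43.8 in L3, 6.38 in L4, 9.56 in L5, 0.915 in the female pupa, 208 in the male adult and 51.7 RPKM in the female adult. Both genes were higher in the egg and the male adult than in L3 to L5 or in the pupa of the other sex, and the egg level of RR48_02456 was the highest of any shared gene outside L2 and the male pupa.

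Between L2 and the male pupa, neither library was generally the higher over the set. L2 was higher for 76 genes and the male pupa for 74, and the median difference, L2 minus male pupa, was 0.03 on the log2(RPKM + 1) scale, against -0.23 over all 11856 genes. The sign of so small a median depends on the scaling: with values scaled to the reads on genes in place of the authors' denominators it was -0.12. Single genes differed widely, with differences from -3.30 to 4.02. A difference of 2-fold or more towards L2 was found in 38 shared genes (25.3%), against 15.9% of all 11856 genes, and towards the male pupa in 46 (30.7%), against 22.2%. At 4-fold or more the counts were 16 towards L2 (10.7%), against 9.04% of all genes, and 15 towards the male pupa (10.0%), against 8.18%. The remaining 66 shared genes (44.0%) lay within 2-fold of each other in L2 and the male pupa, against 61.9% of all genes. Low values lie closer together on this scale, and few of the shared genes were low in L2 or the male pupa. The part of this in the lower share within 2-fold was not tested. Across the 150 genes the L2 and male pupa levels had a Pearson correlation of 0.80 on the log2(RPKM + 1) scale and a Spearman correlation of 0.77. The rule requires both levels to be high, and the genes share length and libraries, so the values are only descriptive.

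**Figure D3:**
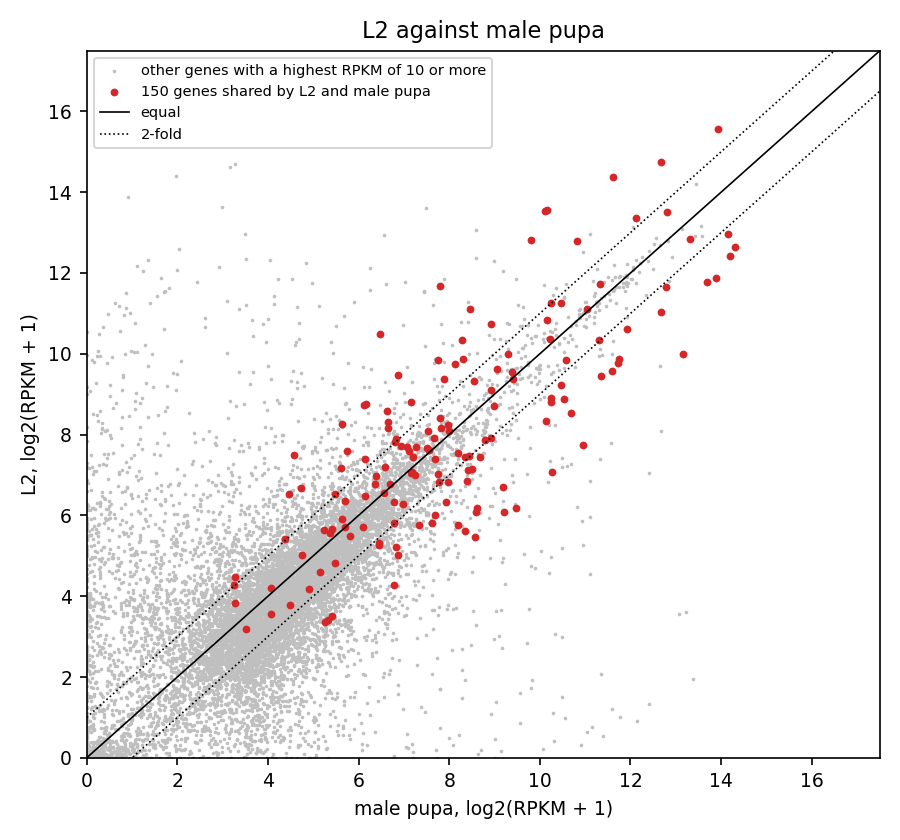
Level of each of the 150 shared genes in L2 (vertical axis) and in the male pupa (horizontal axis), both as log2(RPKM + 1), over the other genes that reached 10 RPKM (grey), with lines at equality and at 2-fold differences. The red points lie on both sides of equality (76 genes higher in L2, 74 higher in the male pupa) over the whole range of levels, and 66 lie within 2-fold.

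The largest difference towards L2 was that of RR48_10948. It stood at 1435 RPKM in L2 and 87.4 RPKM in the male pupa, against 3.30 in the egg, 1.42 in L1, 0.628 in L3, 0.711 in L4, 0.851 in L5, 0.244 in the female pupa, 0.864 in the male adult and 0.865 RPKM in the female adult. L2 exceeded the male pupa 16.4 times (95% counting interval 15.8 to 17.1). RR48_15003, at 3258 RPKM in L2 and 222 RPKM in the male pupa, had a ratio of 14.7 (14.1 to 15.2), and its other levels were 3.43 in the egg, 0.231 in L1, 0.495 in L3, 0.177 in L4, 4.26 in L5, 1.32 in the female pupa, 0.215 in the male adult and 0.204 RPKM in the female adult. The male pupa was far above the other 8 libraries for both genes in spite of these ratios.

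In the other direction, RR48_15371 stood at 71.2 RPKM in L2 and 711 RPKM in the male pupa, against 0.151 in the egg, 0.379 in L3, 0.339 in L4, 0.105 in the female pupa and a listed 0 in L1, L5, the male adult and the female adult. The male pupa exceeded L2 9.98 times (9.23 to 10.8). RR48_06742 stood at 213 RPKM in L2 and 1965 RPKM in the male pupa, a ratio of 9.22 for male pupa over L2 (9.07 to 9.36), against 0.994 in the egg, 0.555 in L1, 0.342 in L3, 2.07 in L4, 0.658 in L5, 5.42 in the female pupa, 2.66 in the male adult and 0.645 RPKM in the female adult. Both genes were nonetheless far higher in L2 than in the other 4 instars.

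The closest pair of levels was that of RR48_09495, at 93.4 RPKM in L2 and 93.5 RPKM in the male pupa (ratio 0.999, counting interval 0.963 to 1.04), against 0.417 in the egg, 0.216 in L1, 0.185 in L3, 0.367 in L4, 0.295 in L5, 3.93 in the female pupa, 1.36 in the male adult and 0.573 RPKM in the female adult. RR48_14632 stood at 51.6 RPKM in L2 and 51.3 RPKM in the male pupa, against 11.5 in the egg, 4.40 in L1, 4.23 in L3, 1.73 in L4, 0.769 in L5, 5.19 in the female pupa, 4.29 in the male adult and 2.66 RPKM in the female adult. These differences between L2 and the male pupa were within counting error.

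The rule placed L2 above each of the other 4 instars by 2-fold or more for all 150 genes, which held for 7.91% of all 11856 genes, and the male pupa above the female pupa and both adults, which held for 6.82%. Where the lower value was above 0, L2 exceeded L1 121 times and L3 99.4 times in the median shared gene, and the male pupa exceeded the female pupa 86.4 times. The smallest ratio of male to female pupa was 3.92. The sexes of the pupae differ, as do the individuals, and with 1 pupa of each sex these cannot be told apart.

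Among the 8 libraries below the gap, the egg was the most often the highest. The egg was the highest of the 8 for 61 shared genes (40.7%), against 9.45% of all 11856 genes. The female pupa was the highest for 32 (21.3%, against 33.6% of all genes), the male adult for 23 (15.3%, against 15.5%), L5 for 8 (5.33%, against 4.57%), the female adult for 8 (5.33%, against 13.1%), L3 for 7 (4.67%, against 6.90%), L4 for 7 (4.67%, against 10.5%) and L1 for 4 (2.67%, against 6.41%). The egg library held 39 shared genes at 10 RPKM or more, the most of the 8, and L5 held 10, the fewest. The rule fixes only that all 8 lie below the gap and not their order, but a gene with a high value in 1 of them needs a higher level in L2 and the male pupa to enter the set. Genes with 1 more library above the gap beside L2 and the male pupa were left out. That library was the female pupa in 70 genes and the egg in 17. The shares over all genes passed no such filter, so the 2 sets of shares are not like for like.

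**Figure D4:**
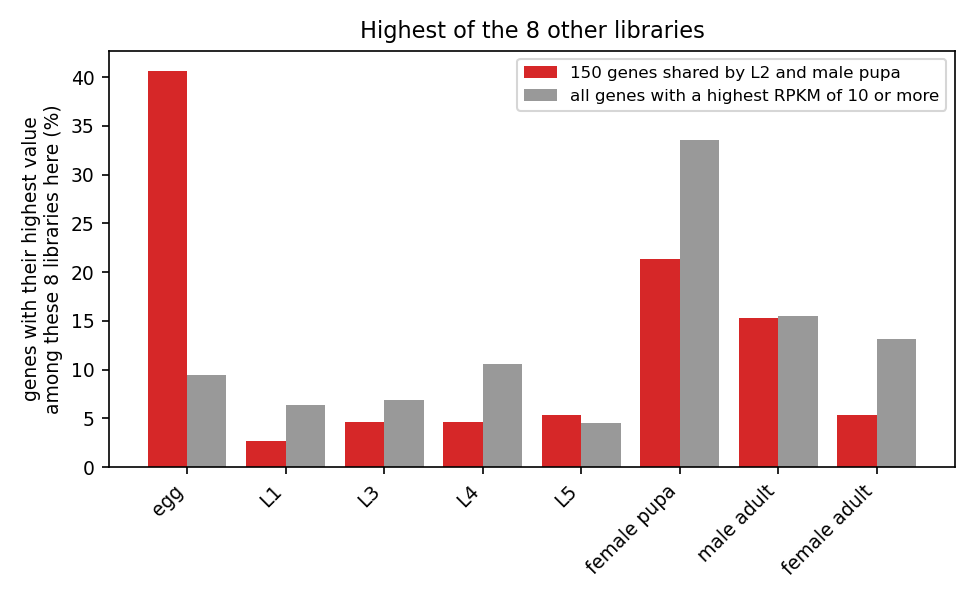
Share of genes (vertical axis, percent) for which each of the 8 libraries outside the pair was the highest of the 8, for the 150 shared genes beside all 11856 genes that reached 10 RPKM. The egg holds 40.7% of the shared genes, against 9.45% of all genes, and the female pupa 21.3%, against 33.6%.

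Most shared genes were lower in L1 than in the egg. L1 was below the egg for 129 of the shared genes (86.0%), against 55.5% of all genes. On the log2(RPKM + 1) scale, 3 shared genes (2.00%) were at least 2-fold higher in L1, against 9.67% of all genes, and 55 (36.7%) were at least 2-fold lower in L1 than in the egg, against 12.7%. With a pseudocount of 0.1 in place of 1, 86 (57.3%) were at least 2-fold lower in L1, against 17.1% of all genes. In 29 shared genes (19.3%) the egg was at least 2-fold above each of L1, L3, L4 and L5, against 5.79% of all genes. Of the shared genes, 19 (12.7%) reached 10 RPKM in the egg and not in L1, against 8.04% of all genes. RR48_13393 shows the order of levels with high values: it stood at 3194 RPKM in L2 and 7082 RPKM in the male pupa, against 276 in the egg, 35.1 in L1, 0.172 in L3, 1.33 in L5, 0.856 in the female pupa, 1.12 in the male adult, 6.91 RPKM in the female adult and a listed 0 in L4. Among the instars it was therefore high in L2, with L1 next and L3 to L5 near 0.

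The shared genes took 0.0423% of the reads on genes in L5 and 0.0698% in L4, with the female adult between them at 0.0517%, low shares that the rule requires of all 8 libraries. Between L5 and L4, 20 shared genes (13.3%) were at least 2-fold higher in L5, against 7.24% of all genes, and 28 (18.7%) were at least 2-fold lower, against 32.4%. The shared genes had medians of 0.840 RPKM in L5 and 0.862 RPKM in L4, against 9.73 and 16.4 RPKM over all genes, so the added 1 damps their differences. All genes leaned towards L4, with a median difference, L5 minus L4, of -0.60 on the log2(RPKM + 1) scale. These shares were not recomputed with another pseudocount or scaling.

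Set against all genes, a larger share of the shared genes was higher in the male adult at 2-fold but not at 4-fold, with 1 animal each. The share higher in the female adult was below that of all genes at 2-fold and at 4-fold. The male adult was at least 2-fold above the female adult for 44 shared genes (29.3%), against 19.3% of all genes, and at least 4-fold above it for 11 (7.33%), against 8.86%. The female adult was at least 2-fold above the male adult for 11 shared genes (7.33%), against 12.2% of all genes, and at least 4-fold above it for 1 (0.667%), against 3.04%. The median difference, male minus female adult, was 0.42 over the set and 0.09 over all genes on the log2(RPKM + 1) scale. The levels were low in both adults, with medians of 1.58 RPKM in the male and 0.825 RPKM in the female, where the added 1 damps differences: with 0.1 added in its place, 75 shared genes (50%) were at least 2-fold higher in the male adult, against 23.0% of all genes, and 20 (13.3%) in the female adult, against 14.5%. The 4-fold counts were not recomputed with 0.1 added. Sex cannot be told apart from the individual here.

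RR48_14679 had the largest difference between the adults, with 65.1 RPKM in the male and 0.383 RPKM in the female adult. Its other levels were 1013 RPKM in L2 and 629 RPKM in the male pupa, with 104 in the egg, 36.2 in L1, 8.96 in L3, 3.91 in L4, 0.793 in L5 and 4.60 RPKM in the female pupa. RR48_13287 followed, with 16.5 RPKM in the male adult on 89 reads and a listed 0 in the female adult, beside 130 RPKM in L2, 215 RPKM in the male pupa, 9.79 in the egg, 9.17 in L1, 1.37 in L3, 1.98 in L4, 2.25 in L5 and 0.567 RPKM for its female pupal level. The male adult was above the female adult for both genes, and the order of the pupae was fixed by the rule. RR48_03158 went the other way, with 0.433 RPKM in the male adult on 2 reads and 5.55 RPKM in the female adult on 27 reads, beside 422 RPKM in L2, 68.0 RPKM in the male pupa, 1.67 in the egg, 0.232 in L1, 3.59 in L3, 0.534 in L4, 5.24 in L5 and 0.993 RPKM in the female pupa. The second lowest difference was that of RR48_13393, whose levels are given above with the egg.

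Between the female adult and the female pupa, which the rule does not order, the shared genes did not depart far from the rest. The female adult was at least 2-fold higher for 22 shared genes (14.7%), against 18.7% of all genes, and at least 2-fold lower for 49 (32.7%), against 33.9%. The shared genes had medians of 0.825 RPKM in the female adult and 1.66 RPKM in the female pupa, against 13.0 and 18.7 RPKM over all genes. At such low levels the added 1 damps differences, and this comparison was not recomputed with 0.1 added.

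Some of the shared genes had consecutive locus tags. A member with a tag number 1 away was found for 41 of the 150 (27.3%), in 18 runs: 15 of 2 tags, 2 of 3 and 1 of 5. Sets chosen by the same rule for other pairs gave like shares, with 40 of 150 for male and female pupa (26.7%), 40 of 150 for male and female adult (26.7%) and 35 of 121 for male pupa and male adult (28.9%). The share for the L2 and male pupa set was close to these. Tag numbers are taken here as an order only, because no coordinates were used. Neighbouring genes can be copies of each other that share reads, which could not be checked without sequences, so genes of a run may not be independent.

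The longest run held 5 consecutive tags, RR48_04867 to RR48_04871. RR48_04867 stood at 1290 RPKM in L2 and 310 RPKM in the male pupa, against at most 17.6 RPKM in the other 8 libraries, and RR48_04871 at 2427 RPKM in L2 and 1421 RPKM in the male pupa, against at most 44.7 RPKM. The 3 tags between them stood at 2188, 206 and 173 RPKM in L2 and at 349, 153 and 323 RPKM in the male pupa, in tag order, against at most 1.30 RPKM elsewhere. L2 was the higher for 4 of the 5, with differences from -0.90 to 2.64 on the log2(RPKM + 1) scale. The tags just outside the run were high in pupae: the gene before it stood at 524 RPKM in L2, 721 RPKM in the male pupa and 178 RPKM in the female pupa, and the gene after it at 11.3 RPKM in L2, 365 RPKM in the male pupa and 959 RPKM in the female pupa. Of these neighbours, the gene before the run was higher in L2 and the male pupa than in the female pupa, and the gene after it was highest in the female pupa.

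**Figure D5:**
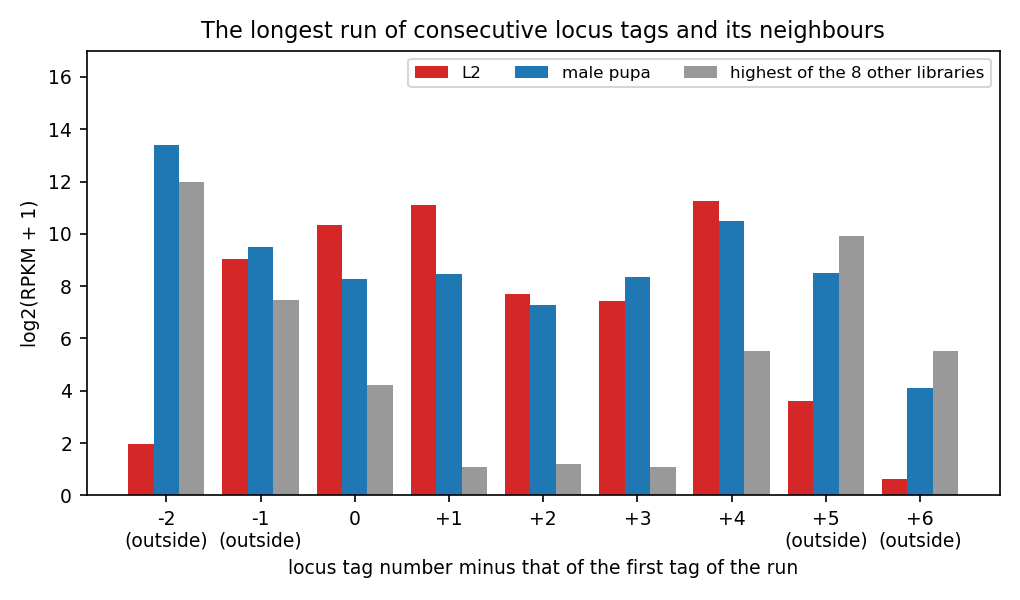
Levels, as log2(RPKM + 1), of the longest run of consecutive locus tags (positions 0 to +4, the 5 shared genes) and of the 2 tags on either side (marked outside), with bars for L2, the male pupa and the highest of the other 8 libraries. Within the run the bar of the other libraries is far below those of L2 and the male pupa (at most 44.7 RPKM), while on either side it reaches 178 RPKM or more at 3 of 4 tags, with the female pupa the highest library each time.

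Most genes next to a shared gene did not have its pattern, but some did. Of the 196 genes outside the set that were 1 tag from a shared gene and reached 10 RPKM, 32 (16.3%) were at least 2-fold higher in L2 than in each other instar and at least 2-fold higher in the male pupa than in the female pupa and both adults. Among all 11706 genes outside the set, 272 (2.32%) met both conditions. Of the 32 genes, 1 had met the rule for the shared genes and was not kept for its smaller gap.

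The shared genes were of ordinary length. Their median coding length, worked out from the RPKM steps with lengths taken as multiples of 3 bp, was 879 bp, against 1005 bp over all 11856 genes, and 46 (30.7%) were below 600 bp, against 28.6%. The Spearman correlation of length and gap over the 150 genes was -0.00.

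The set has no natural edge. The shared genes just inside its limit were RR48_11921, with a gap of 1.68, and RR48_08102, with a gap of 1.63. RR48_11921 stood at 18.6 RPKM in L2 and 8.54 RPKM in the male pupa, against at most 1.99 RPKM in the others, and RR48_08102 at 51.1 RPKM in L2 and 67.6 RPKM in the male pupa, against at most 15.8 RPKM. The genes just outside were RR48_01289, with a gap of 1.61, and RR48_14633, with a gap of 1.55. RR48_01289 stood at 11.8 RPKM in L2 and 9.77 RPKM in the male pupa, against at most 2.53 RPKM in the others, and RR48_14633 at 86.8 RPKM in L2 and 98.6 RPKM in the male pupa, against at most 29.0 RPKM. The levels on both sides of the limit were alike. The tag of RR48_14633 follows that of RR48_14632, a shared gene described above.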

How the data were processed

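Whole-body poly-A RNA of 10 stages was sequenced as paired ends on an Illumina HiSeq instrument, with 1 library per stage. The authors measured expression as RPKM and deposited 1 table of 15285 genes. TopHat 1.0.12 and 1.4.1 are named in the submitters' processing notes, and the reads were mapped to the authors' own genome assembly. The counting tool, assembly version and strand setting are not given in the sources used here. Each of the 10 columns was matched to its library by name.

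Genes were ordered on log2(RPKM + 1). The rule and the measures were chosen with earlier results of these data known. Differences of 2-fold or more on this scale were counted in the set and in all 11856 genes that reached 10 RPKM. There is no replication, so no test was made. On this scale the fold change of a gene with low values comes out too small. Reads were recovered as the smallest whole multiples behind the RPKM values. Lengths were taken in steps of 3 bp, which is assumed and fixes the scale of the lengths and of the read totals. The method was run on simulated data with lengths in the same steps, which cannot check that assumption. Reads on genes exceeded the read totals in all 10 libraries, as in L2 with 35989828 against 26492878. Whether reads were counted more than once was not tested, and the intervals would then be too narrow. These reads gave depth (23274472 to 35989828 on genes), Wilson intervals for shares of reads and exact binomial intervals for ratios of 2 libraries, which cover counting error only. The genes named were at most 2 for each aspect: the largest gap, the highest level in L2 and in the male pupa, the largest, smallest and closest L2 to male pupa difference, the ends of the longest tag run, the genes at the limit, and the largest and smallest difference between adults.

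Results were recomputed with other minimum levels and gaps, with 4-fold differences, without each library in turn, with 0.1 as the pseudocount and with values scaled to their 75th percentile. A scaling to the reads on genes was chosen after seeing the data. Lists of genes by function were not used, since the RefSeq table at hand, of assembly ilPapMach1.1, holds none of the tags, and the authors' functional annotation was not used here. Python 3.11.15 with numpy 2.4.6, pandas 2.3.3, scipy 1.17.1 and matplotlib 3.10.9 was used.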

Additional observations from a re-analysis of the deposited data

How the results depend on the processing

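The number of genes that met the rule, 173, was 168 with a pseudocount of 0.1, 174 with scaling by the 75th percentile, 166 to 182 with a minimum of 20, 5 or 1 RPKM, 140 with a gap of at least 2, and 169 with scaling to the reads on genes, an alternative chosen after seeing the data. Leaving out 1 library gave 170 to 258 genes, the highest without the female pupa and the next, 205, without the egg. Of the 150 shared genes, 144 to 149 met the rule under each change of pseudocount, scaling or library. The median L2 minus male pupa difference, 0.03, turned to -0.12 with scaling to the reads on genes and lay between 0.00 and 0.09 otherwise. The count of shared genes at least 2-fold higher in the male than in the female adult was 44 (29.3%, against 19.3% of all genes). It was 75 with a pseudocount of 0.1 (50%, against 23.0%) and 11 at 4-fold (7.33%, against 8.86%). Under scaling by the 75th percentile it was 43 (28.7%, against 18.8%), and under scaling to the reads on genes 46 (30.7%, against 21.6%). The count at least 2-fold lower in L1 than in the egg was 55 (36.7%, against 12.7%). It was 86 with a pseudocount of 0.1 (57.3%, against 17.1%) and 55 under each scaling (36.7%, against 12.7% and 15.3%). With a gap of at least 2, 0 pairs of libraries had more genes than L2 and male pupa, against 2 pairs at a gap of at least 1. The egg was the highest of the other 8 libraries for 59 and 48 shared genes under the 2 scalings, against 61. The share over all genes was not recomputed under these scalings, so the counts have no share to be set against. The genes with a neighbouring tag, 41, were 50 with tags at most 3 apart and 45 over all 173 genes. The cause of these changes was not tested. No paired analysis was possible because each stage has 1 library and no test was made. Values near 0 rest on few reads. L2 and the male pupa had the most reads on genes when the reads on the shared genes were counted in. The part of depth in the pattern was not tested. With 1 library per stage the spread between animals of a stage is unknown.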
